A study of Mus musculus with 8 samples.

Results

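The genes described here are 7 members of 3 families that are active in early embryos, of which most are silent in most adult tissues and return in many tumours: Hmga1 and Hmga2, Igf2bp1, Igf2bp2 and Igf2bp3, and Lin28a and Lin28b. They were chosen by mouse symbol, with their counts across the 4 groups already known from these libraries, and all 7 were found among the 47069 genes of the full tables. All 7 passed the filter on low counts, which left 15669 genes. Since the choice was made with these counts in view, the calls given below on the 7 genes describe the libraries and are not independent evidence. The data are poly-A RNA-seq counts from mouse embryonic stem (ES) cells of strain C57BL/6, with 2 libraries in each of 4 groups: wild type (WT), Pcgf3KO, Pcgf5KO, and Pcgf3/5 DKO, here DKO. All knockout cells were made with Cas9, and cells of every group, WT included, grew in fetal calf serum with leukemia inhibitory factor on fibroblast feeders stopped with mitomycin C. The labels do not say whether the 2 libraries of a group are separate clones or cultures, so p-values measure only the spread between these libraries, which may be technical.

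The HMGA proteins are small chromatin proteins that bind the minor groove of AT-rich DNA and bend it. The IGF2BP proteins bind messenger RNAs and affect their stability, location and translation, and the Igf2 transcript gave the family its name. LIN28 proteins bind the precursors of the let-7 microRNAs and block their maturation. Mature let-7 in turn represses transcripts of all 3 families, so Lin28, let-7, Hmga2 and the Igf2bp genes are often described as 1 circuit of developmental timing, in which Lin28 is high and let-7 is low in ES cells. PCGF3 and PCGF5, the proteins whose genes were edited here, belong to variant Polycomb repressive complexes, which place ubiquitin on histone H2A.

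WT replicate 1 could be read for only 8093 genes, Hmga1 alone of the 7, since its table stops partway, so WT below is the library WT replicate 2 unless stated. The test then assumes that this 1 library varies as the knockout libraries do. The 7 full tables held 12652616 to 19923964 counts. Levels are in CPM, the count as a share of the library total after scaling with TMM factors. Pcgf3 was at 109.7 CPM in WT and at 60.46 to 66.05 in its own knockout, with 92.27 to 94.14 in Pcgf5KO and 67.21 to 86.63 in DKO. Pcgf5 was at 20.73 in WT and at 9.058 to 12.31 in its own knockout, with 17.28 to 17.45 in Pcgf3KO and 13.54 to 13.89 in DKO. Both transcripts were thus present in every edited library, and a Cas9 edit need not remove a transcript. Against WT, the log2 fold change of Pcgf3 was −0.79 ± 0.14 (standard error) in Pcgf3KO and −0.51 ± 0.14 in DKO. That of Pcgf5 was −0.94 ± 0.18 in Pcgf5KO and −0.60 ± 0.18 in DKO. Protein was not measured here. The ES cell markers Pou5f1 (195.6 to 260.9 CPM), Sox2 (367.2 to 423.4) and Esrrb (377.0 to 493.5) were present in all 7 libraries. The 2 DKO libraries differed most from each other (correlation of log2 CPM over genes 0.985, against 0.993 in Pcgf3KO and 0.992 in Pcgf5KO).

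The sequence that ties the 3 families together is the let-7 seed. Of 10 mature let-7 names in the RefSeq table (GRCm38.p6), 9 share the bases GAGGUAG at positions 2 to 8, which are in capitals in the family member below.

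let-7a-5p: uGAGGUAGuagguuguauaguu

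The complement of that seed, CTACCTC, was searched on the transcript strand of the longest annotated 3′ UTR of each gene (GENCODE M21, GRCm38). The sites that follow are the ones nearest the stop codon in the 4 genes whose levels or match counts the results turn on. They are given 5′ to 3′ with the seed match in capitals. All lie on the minus strand.

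Hmga2, chr10:120364224-120364245: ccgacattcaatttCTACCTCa

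Igf2bp2, chr16:22059473-22059494: cacacaaataaaagCTACCTCa

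Igf2bp3, chr6:49086787-49086808: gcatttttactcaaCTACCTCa

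Lin28b, chr10:45381022-45381043: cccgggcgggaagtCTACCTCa

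Each of the 4 matches shown is followed by an A, the base that usually strengthens a let-7 site. The other matches in Hmga2 and Lin28b, and the only match in Hmga1, are followed by C or T. All 7 genes held at least 1 match, while 8.68% of 21832 genes with a protein-coding transcript held one. Genes without an annotated 3′ UTR were not set aside from that count. Its median UTR length was 906.5 bases, below the 1183 bases of Hmga1, the shortest of the 7. Hmga2 held 4 matches in 3014 bases. Of 2246 genes with a 3′ UTR within 20% of that length, 0.134% held at least as many. Lin28b held 4 in 4445 bases (0.236% of 1270 genes of like length held as many), Igf2bp1 4 in 6337 bases (0.355% of 563) and Lin28a 2 in 2775 bases (2.1% of 2430). Hmga1, Igf2bp2 and Igf2bp3 held 1 each. Of genes of like length, at least 8.08% and at most 13.3% held 1 or more. These genes are textbook let-7 targets, so the matches describe what is known of them. Mature let-7 is not captured in poly-A gene counts and was not measured here.

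**Figure D1:**
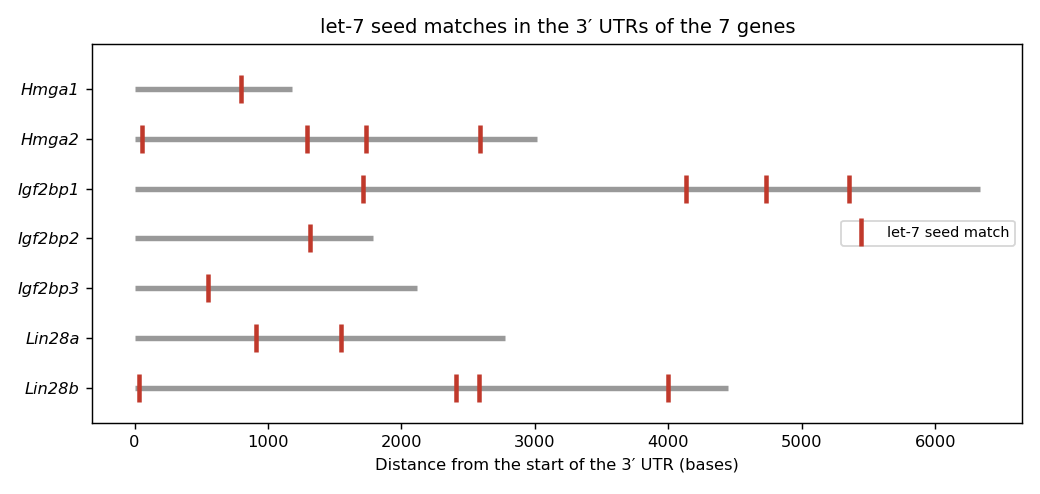
Positions of let-7 seed matches (red ticks) along the 3′ UTR (grey bar) of each gene, with the x axis in bases from the UTR's start. Hmga2, Igf2bp1 and Lin28b carry 4 matches, Lin28a 2 and the other genes 1.

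Per base of exon, the 7 genes covered most of the range of expressed genes. Over the 7 libraries the median level per kilobase of exon was 456.3 CPM for Hmga1, 96.9 for Lin28a, 75.38 for Igf2bp1, 29.62 for Igf2bp2, 4.812 for Lin28b, 2.674 for Igf2bp3 and 0.6688 for Hmga2. Hmga1 stood at the 99.6th percentile of the mean per kilobase among 15616 tested genes, Lin28a at the 97.3rd and Hmga2 at the 29.4th. The ranges of the first 5 genes in this order did not overlap their neighbours (Lin28a 89.51 to 105.3, Igf2bp1 68.79 to 82.13). Those of Igf2bp3 (0.6845 to 3.44) and Hmga2 (0.6194 to 2.194) did, and their order was reversed in DKO: Igf2bp3 was above Hmga2 in WT and all 4 single-knockout libraries and below it in both DKO libraries.

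Each family had 1 dominant member in every library. Hmga1 made up 99.5% to 99.9% of the Hmga level per kilobase and Lin28a 93.9% to 95.9% of the Lin28 level. Igf2bp1 made up 75.0% of the Igf2bp level in WT and 67.3% to 72.2% in the edited libraries. The members called in the test over 7 libraries were Hmga2, Igf2bp2 and Igf2bp3, none of them the dominant one.

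**Figure D2:**
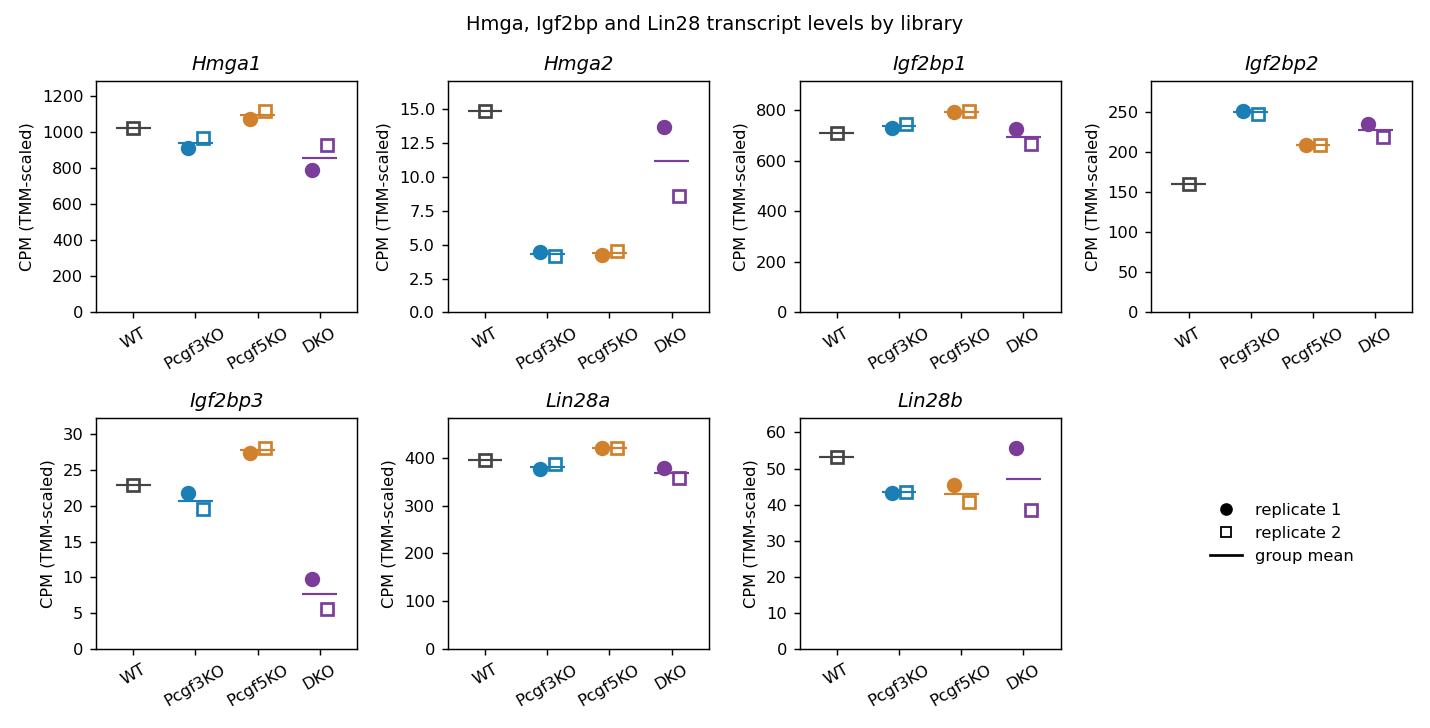
CPM of each gene (y axis, from 0, own scale per panel) in WT replicate 2 and the 6 knockout libraries, with filled circles for replicate 1, open squares for replicate 2 and lines for group means. Hmga2 is low in the 4 single-knockout libraries (4.194 to 4.529 CPM) and Igf2bp3 is low in the 2 DKO libraries (5.585 and 9.749 CPM).

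Hmga2 (ENSMUSG00000056758, chr10:120361275-120476469, minus strand, mm10), the fetal HMGA gene, was lower in both single knockouts than in WT and nearer to WT in DKO. WT held 14.86 CPM, the Pcgf3KO libraries 4.434 and 4.194, the Pcgf5KO libraries 4.261 and 4.529, and the DKO libraries 13.7 and 8.599. These rest on 261 reads in WT, 56 to 88 in the single-knockout libraries, and 260 and 174 in DKO. The 4 single-knockout libraries lay together at about the same level, the 2 DKO libraries lay above all of them and apart from each other, and no library exceeded WT.

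Hmga2 fell in Pcgf3KO by 1.78 ± 0.26 on the log2 scale (standard error; 3.44-fold lower, edgeR adjusted p = 0.00984) and its log2 fold change in Pcgf5KO was −1.76 ± 0.27 (3.39-fold lower, adjusted p = 0.0115). In DKO its log2 fold change against WT was −0.42 ± 0.25 (adjusted p = 0.392), with a 95% interval of −0.98 to 0.14. It was higher in DKO than in Pcgf3KO (1.36 ± 0.23, adjusted p = 0.021) and than in Pcgf5KO (1.34 ± 0.23, adjusted p = 0.0292). Between the single knockouts the difference was 0.02 ± 0.26, with an interval of −0.55 to 0.60. The call in Pcgf3KO was lost without either Pcgf3KO library (adjusted p = 0.105 and 0.106) and the call in Pcgf5KO without either Pcgf5KO library (0.146 and 0.114), while the log2 fold changes stayed between −1.82 and −1.71. Without DKO replicate 1, the DKO library nearest to WT, the log2 fold change of Hmga2 in DKO against WT was −0.79. The calls of DKO against each single knockout were lost without any 1 of the 4 single-knockout libraries (adjusted p from 0.0789 to 0.329).

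If the changes in the single knockouts had added on the log2 scale, the DKO change of Hmga2 would have been −3.54, or 1.276 CPM. The measured change exceeded that sum by 3.12 ± 0.35 (adjusted p = 0.0033), which is the largest such departure among the 7 genes. It was called under all 11 alternatives that could be run, with values from 2.75 to 3.43. It rests on 1 WT library, like every comparison with WT here.

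Because Hmga2 is also made by fibroblasts and by differentiating cells, markers of both were read in the same libraries. The 25 feeder fibroblast markers summed to 2126 CPM in WT, to 1691 and 1740 in the Pcgf3KO pair, to 1925 and 1997 in the Pcgf5KO pair, and to 1948 and 1879 in the DKO pair, and 1 to 3 of them were at 0 in each library. Of the 20 that were tested, 6 were called lower in Pcgf3KO, 1 in Pcgf5KO and 5 in DKO. Over all tested genes, 2.36%, 2.99% and 3.22% were called in these comparisons, in either direction. The same shares apply to the other marker lists below. Most of the sum came from Fn1 (732.5 to 1138 CPM) and Sparc (671.9 to 870.9), matrix genes that other cell types make too. Of the 10 markers taken as defining, Thy1 was at 12.6 to 33.31 CPM, Col1a1 at 5.19 to 16.23, Col1a2 at 1.581 to 6.149 and Pdgfrb at 1.065 to 3.163. The other 6 had few reads in any library: at most 30 for Dcn, 20 for Col3a1, 12 for Lum, 6 for Postn, 4 for Prrx1 and 2 for Twist2. Markers of this list went both ways between DKO and the single knockouts. The shares called over all tested genes were 1.74% in DKO against Pcgf3KO and 2.28% in DKO against Pcgf5KO. In DKO against Pcgf3KO, 5 were called higher (Thy1, Col6a1, Col5a1, Mmp2 and Fn1) and 2 lower (Acta2 and Tagln), and in DKO against Pcgf5KO 1 was higher (Col6a1) and 3 lower (Acta2, Col1a2 and Tagln). The DKO change was above the sum of the single changes for 7 of the 20, among them Pdgfrb, Thy1 and Mmp2, and below it for 1 (Acta2), with a median difference of 1.03. The genes in these counts were named after their values were seen. Over all tested genes, 3.79% were called as departing from the sum, in either direction. The 11 extraembryonic endoderm markers summed to 557.8 CPM in WT, 272.2 to 283.1 in the single knockouts, and 316.3 and 371.4 in DKO, with at most 1 of them at 0. Most of that sum came from the matrix genes Lama1 (157.9 to 226.6 CPM), Col4a1 (65.77 to 200.4) and Col4a2 (29.3 to 114.4). The others had fewer reads in any library: at most 163 for Dab2, 95 for Gata4 and 23 each for Sox7 and Pdgfra. Gata6 had at most 15, Sox17 13, Foxa2 5 and Afp 3. Of the 9 endoderm markers that were tested, 3, 4 and 3 were called lower in the Pcgf3KO, Pcgf5KO and DKO cells. The endoderm sum was highest in WT and next highest in DKO. Of the DKO pair, replicate 2 was the higher in that sum and replicate 1 the higher for Hmga2. The 8 mesoderm markers summed to 83.47 CPM in WT and 30.83 to 67.9 in the edited libraries, the 8 neural markers to 390.4 and 205.9 to 318.3, the 9 primed epiblast markers to 1093 and 1189 to 1358, and the 13 pluripotency markers to 3424 and 3556 to 4151. Most of the primed sum came from Dnmt3b (768.7 to 987.1 CPM) and Dnmt3a (199.7 to 264.9). Against WT, 2, 1 and 1 of 6 tested mesoderm markers were called lower in Pcgf3KO, Pcgf5KO and DKO, and 0 higher. In the same order, 3, 2 and 4 of 7 neural markers were lower and 0 higher. Of 8 tested primed markers, 0, 1 and 2 were higher (Zic2, and in DKO also Otx2) and 1 lower each time (Cdh2). Of the 13 pluripotency markers, 2, 3 and 2 were higher and 0 lower. As for Hmga2, DKO levels of some markers were called above what adding both single-knockout changes would give. These were 3 of 9 tested endoderm markers, by 2.16 (Col4a1), 2.48 (Col4a2) and 1.56 (Dab2) on the log2 scale. They also included 3 of 7 neural markers and 1 of 6 mesoderm markers (Hand1, by 4.64). In those lists 0 were called below. Of the primed markers 0 of 8 departed, and of the 13 pluripotency markers 1 was above and 3 below. The part of other cell types in the Hmga2 levels, and in those of the other 6 genes, was not tested. In bulk RNA, fewer cells of a type and less RNA per cell cannot be told apart.

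Hmga1 (ENSMUSG00000046711, chr17:27556620-27563674, plus strand), the widely expressed HMGA gene of proliferating cells, differed little. It was at 1021 CPM in WT, at 913.9 and 969.7 in the Pcgf3KO pair, at 1075 and 1116 in the Pcgf5KO pair, and at 787.4 and 929.4 in the DKO pair. The Pcgf5KO libraries were the highest, and 1 DKO library was the lowest. Its log2 fold changes against WT were −0.12 ± 0.10 in Pcgf3KO, 0.10 ± 0.10 in Pcgf5KO and −0.25 ± 0.10 in DKO (adjusted p = 0.226), and none was called.

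Hmga1 is the gene for which both WT libraries have a value. In CPM of the genes listed in all 8 tables, the WT libraries held 6393 and 5761, the Pcgf3KO libraries 5148 and 5479, the Pcgf5KO libraries 6031 and 6246, and the DKO libraries 4451 and 5255. There both DKO and both Pcgf3KO libraries lay below both WT libraries. In that edgeR test over 8 libraries and 2702 genes, Hmga1 fell in DKO by 0.32 ± 0.09 (adjusted p = 0.0456). In Pcgf3KO its value in the same edgeR test was −0.19 ± 0.09 (adjusted p = 0.242). Of the 2702 genes, 219 were called in DKO against WT and 149 in Pcgf3KO against WT. Hmga1b, a near-identical copy of Hmga1, was counted at 103.3 CPM in WT, 70.79 to 85.85 in Pcgf3KO, 101.3 to 108.6 in Pcgf5KO and 46.06 to 77.39 in DKO. Reads may be shared between the 2 copies, so the split between them is uncertain.

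Igf2bp3 (ENSMUSG00000029814, chr6:49085223-49214957, minus strand), the most strictly fetal of the IGF2-mRNA-binding proteins, was lower in DKO than in every other group. It was at 22.95 CPM in WT, at 21.82 and 19.57 in the Pcgf3KO pair, at 27.4 and 28.06 in the Pcgf5KO pair, and at 9.749 and 5.585 in the DKO pair, from 403, 433, 350, 463, 347, 185 and 113 reads in that order. The 5 other libraries lay within 19.57 to 28.06 CPM, and both DKO libraries lay far below them.

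Against WT, Igf2bp3 fell in DKO by 1.59 ± 0.24 on the log2 scale (3.0-fold lower, adjusted p = 0.0103). It was also lower in DKO than in Pcgf3KO (−1.44 ± 0.21, adjusted p = 0.0134) and than in Pcgf5KO (−1.86 ± 0.21, adjusted p = 0.0112). In the single knockouts its changes against WT were −0.15 ± 0.24 and 0.27 ± 0.24, with 95% intervals of −0.68 to 0.38 in Pcgf3KO and −0.26 to 0.81 in Pcgf5KO. The DKO change was 1.71 ± 0.32 below the sum of the single changes (log2 difference −1.71, adjusted p = 0.0224). The call of DKO against WT held under all 11 alternatives that could be run, with values from −2.04 to −1.23. The call of the departure from the sum was lost without any 1 of the 4 single-knockout libraries (adjusted p from 0.094 to 0.126, values from −1.79 to −1.63). The call against Pcgf3KO was also lost without any 1 of those 4 (adjusted p from 0.0564 to 0.185), and that against Pcgf5KO without either Pcgf5KO library (0.166 and 0.164).

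Of the exon bases of Igf2bp3, 1529 (18.74%) are shared with Malsu1, a mitochondrial ribosome assembly gene on the opposite strand, and the library kit does not mark strand. Malsu1 was at 18.9 CPM in WT and 15.07 to 20.21 in the other 6 libraries, with a log2 fold change of −0.10 ± 0.19 in DKO. Its lowest value was 15.07 CPM in DKO replicate 1 and its highest 20.21 in DKO replicate 2. How reads in the shared bases were counted is not stated, and their part in the Igf2bp3 levels was not tested.

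Igf2bp2 (ENSMUSG00000033581, chr16:22059009-22163299, minus strand), the member of the family that persists in adult tissues, was higher in the edited cells. It was at 159.9 CPM in WT, at 251.1 and 247.9 in the Pcgf3KO pair, at 209.3 and 208.8 in the Pcgf5KO pair, and at 235.7 and 219.3 in the DKO pair. All 6 edited libraries lay above the 1 WT library, and the order of the group means was Pcgf3KO, DKO, Pcgf5KO, WT. It rose in Pcgf3KO by 0.64 ± 0.09 on the log2 scale (1.56-fold, adjusted p = 0.00834) and in DKO by 0.51 ± 0.09 (1.42-fold, adjusted p = 0.0192).

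In Pcgf5KO its value was 0.39 ± 0.09 (1.31-fold, adjusted p = 0.0549), which DESeq2 (adjusted p = 0.0498) and edgeR without the filter (0.0163) called. Pcgf5KO and Pcgf3KO differed by −0.26 ± 0.07 in Igf2bp2, which was not called over all genes (adjusted p = 0.392). The DKO change of Igf2bp2 was below the sum of the single changes (log2 difference −0.52 ± 0.11, adjusted p = 0.0402). The calls of that departure and of the rise in DKO were lost without any 1 of the 4 single-knockout libraries, at values close to those above: −0.53 to −0.51 for the departure (adjusted p from 0.196 to 0.22) and 0.51 in each case for the rise (adjusted p from 0.079 to 0.0869). The call in Pcgf3KO was lost without Pcgf3KO replicate 1 (0.63, adjusted p = 0.111), Pcgf3KO replicate 2 (0.65, adjusted p = 0.103) or Pcgf5KO replicate 2 (0.64, adjusted p = 0.0502).

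Igf2bp1 (ENSMUSG00000013415, chr11:95957163-96005940, minus strand), the most abundant family member, was at 707.7 CPM in WT, at 729.8 and 746.2 in the Pcgf3KO pair, at 790.9 and 795.2 in the Pcgf5KO pair, and at 723.0 and 666.1 in the DKO pair. Its highest library was 1.19 times its lowest. Against WT the log2 fold changes were 0.06 ± 0.08, 0.16 ± 0.08 and −0.03 ± 0.08 in the same order of groups, and 0 of the 3 were called. The widest of these intervals, in Pcgf5KO, ran from −0.02 to 0.35.

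Lin28a (ENSMUSG00000050966, chr4:134003330-134018841, minus strand), the cytoplasmic inhibitor of let-7 maturation that also serves as a pluripotency factor, was the steadiest of the 7. It was at 395.3 CPM in WT, at 376.3 and 387.2 in the Pcgf3KO pair, at 420.3 and 420.6 in the Pcgf5KO pair, and at 378.2 and 357.7 in the DKO pair. The highest library was 1.18 times the lowest, and the changes against WT of −0.05 ± 0.08, 0.09 ± 0.08 and −0.10 ± 0.08 were not called.

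Lin28b (ENSMUSG00000063804, chr10:45376620-45470201, minus strand), its less abundant paralog, was at 53.29 CPM in WT, at 43.13 and 43.62 in the Pcgf3KO pair, at 45.46 and 40.68 in the Pcgf5KO pair, and at 55.7 and 38.5 in the DKO pair. The 2 DKO libraries held both the highest and the lowest value of all 7. Its log2 fold changes against WT were −0.30 ± 0.19 in Pcgf3KO, −0.31 ± 0.19 in Pcgf5KO and −0.18 ± 0.19 in DKO, none called. The intervals allow changes in Lin28b as low as −0.73 in Pcgf5KO. Without DKO replicate 1 the values of Lin28b were −0.29 in Pcgf3KO, −0.30 in Pcgf5KO and −0.47 in DKO. Without DKO replicate 2 they were −0.30 in both single knockouts and 0.07 in DKO. Both fits leave 1 DKO library, so no calls are read from them.

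**Figure D3:**
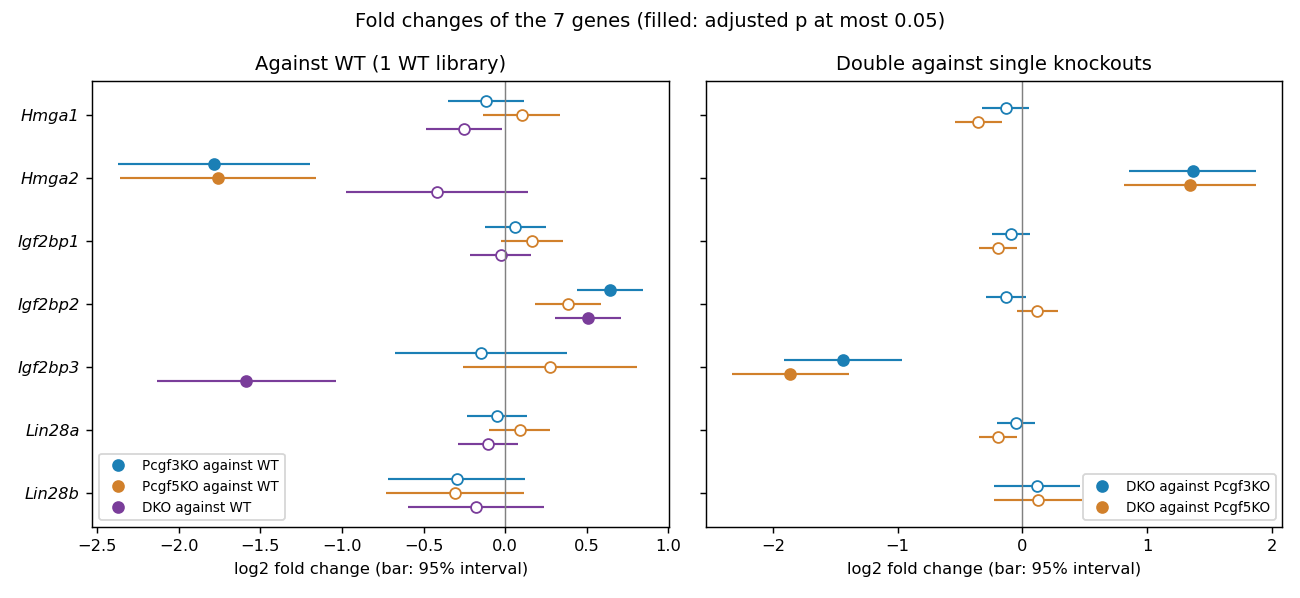
Log2 fold changes (x axis) of the 7 genes with 95% intervals, against WT (left) and for DKO against each single knockout (right), with filled points for adjusted p of at most 0.05. Hmga2 is called lower in both single knockouts, Igf2bp2 higher in Pcgf3KO and DKO, and Igf2bp3 lower in DKO.

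Counted over the 7 genes, edgeR called 2 in Pcgf3KO against WT (Igf2bp2 higher, Hmga2 lower), where 2.36% of all tested genes were called in either direction. It called 1 in Pcgf5KO (Hmga2 lower), against 2.99% of all genes, and 2 in DKO (Igf2bp2 higher, Igf2bp3 lower), against 3.22%. In DKO against Pcgf3KO it called 2 (Hmga2 higher, Igf2bp3 lower), against 1.74%, and in DKO against Pcgf5KO the same pair, against 2.28%. Between the single knockouts it called 0, against 0.14% of all genes, with 2 genes at an unadjusted p below 0.05 and 0 called by DESeq2 or limma-voom. The DKO change departed from the sum of the single changes for 3 genes, against 3.79% of all genes. Since the genes were chosen with these counts known, and the comparisons with WT share 1 library, nothing is read from these shares. The median log2 fold change of the 7 was −0.12 in Pcgf3KO, 0.10 in Pcgf5KO and −0.18 in DKO, beside at most 0.0136 over all tested genes.

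**Figure D4:**
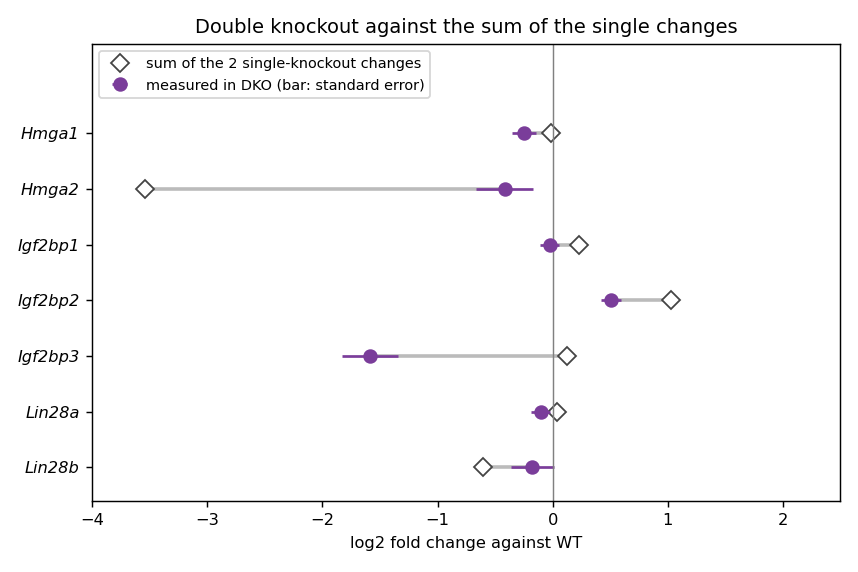
For each gene, the sum of the log2 changes in the 2 single knockouts (open diamonds) and the log2 change measured in DKO with its standard error (filled circles), all against WT replicate 2. The gaps of Hmga2 (3.12), Igf2bp3 (−1.71) and Igf2bp2 (−0.52) were called, and those of the other 4 genes were not.

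The rest of the pathway was read from lists. Of all tested genes, 2.36% in Pcgf3KO, 2.99% in Pcgf5KO and 3.22% in DKO were called against WT. In lists of 14 or 9 genes, 0 calls is near these shares and says little about the list. The share of all genes at an unadjusted p below 0.05 is not given, so nothing is read from counts at that p. Of 14 genes of let-7 processing and Lin28 action, edgeR called 0 against WT in any knockout, with 3, 4 and 2 genes at an unadjusted p below 0.05 in Pcgf3KO, Pcgf5KO and DKO respectively and 0 by DESeq2 or limma-voom. Dicer1, the enzyme that cuts microRNA precursors, was at 184.9 CPM in WT and 195.6 to 252.2 in the edited libraries. Tut7, a uridylyltransferase that LIN28A recruits to let-7 precursors, was at 45.95 CPM in WT and 31.66 to 40.42 in the edited libraries, with −0.51 ± 0.12 in Pcgf5KO (adjusted p = 0.0591). The list's median log2 fold changes were 0.01, 0.05 and 0.04.

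Of 29 other textbook let-7 targets, 0 were higher and 2 lower in Pcgf3KO, 1 higher and 3 lower in Pcgf5KO, and 0 higher and 4 lower in DKO. Thbs1, which encodes the matrix protein thrombospondin 1, fell in all 3 knockouts (−1.80 ± 0.16, −1.75 ± 0.16 and −2.46 ± 0.16). Irs2, an adaptor of insulin and IGF receptors, fell by 0.90 to 1.10 on the log2 scale in each. Mycn rose in Pcgf5KO (0.47 ± 0.08) and Myc fell in DKO (log2 fold change −0.70 ± 0.12). The 2 remaining calls, named after their values were seen, were Plagl1 in Pcgf5KO (−0.97 ± 0.21) and Ccnd1 in DKO (−0.47 ± 0.10). The list's medians were −0.07, −0.17 and −0.09, with 7, 6 and 8 of the 29 at an unadjusted p below 0.05.

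Of 14 tested genes of insulin-like growth factor signalling, 3 were lower in Pcgf3KO, 4 in Pcgf5KO and 3 in DKO, while 0 were higher. Igf2, the fetal growth factor whose transcript IGF2BP proteins bind, was at 267.6 CPM in WT, at 78.65 and 83.94 in the Pcgf3KO pair, at 67.0 and 69.79 in the Pcgf5KO pair, and at 94.96 and 157.1 in the DKO pair. It fell in all 3 knockouts (−1.72 ± 0.21, −1.97 ± 0.22 and −1.09 ± 0.22), and an antisense gene overlaps it. As with Hmga2, its DKO change exceeded the sum of the single changes (2.60 ± 0.29, adjusted p = 0.0031). Of the DKO libraries, replicate 2 was the higher for Igf2 and replicate 1 for Hmga2. Igfbp3, which encodes a binding protein for these growth factors, fell by 0.63 to 0.87 on the log2 scale. Igf2r, the receptor that clears IGF2, fell in Pcgf5KO (−0.43 ± 0.09) and was 0.45 ± 0.08 higher in DKO than in Pcgf5KO (adjusted p = 0.0291).

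Of 8 textbook IGF2BP target transcripts, Igf2 was called lower in each knockout, and Myc was called lower in DKO. Of 9 tested genes of the other HMG families, edgeR called 0 against WT in any knockout, with 2, 3 and 1 at an unadjusted p below 0.05 and 0 called by DESeq2 or limma-voom. H19, the imprinted noncoding neighbour of Igf2, was at or below 0.6425 CPM in every library.

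For each of the 7 genes, the genes with the most similar profile over the 7 libraries were sought among 10999 genes, by Pearson's r of log2 CPM. With 7 points that share the same libraries, high values are easily found, so they are descriptions. Scarb2, a lysosomal membrane protein gene, tracked Hmga2 most closely (r = 0.997), at 110.1 CPM in WT, 72.31 to 74.1 in the single knockouts, and 106.5 and 94.1 in DKO. It was followed by Scd1 (0.992), a fatty acid desaturase, and Tpp1 (0.991), a lysosomal peptidase. Igf2bp2 was tracked by Cdyl2 (0.996), Lemd1 (0.994) and Tns3 (0.991), and Lemd1 went from 2.733 CPM in WT to 19.15 and 18.29 in Pcgf3KO. Igf2bp3 was tracked by Sort1 (0.985), an intracellular sorting receptor, which was at 69.57 to 75.45 CPM in WT and the single knockouts, and 63.29 and 58.37 in DKO. Hmga1 was tracked by Nutf2 (0.993), Igf2bp1 by Derl3 (0.989), Lin28a by Dctn5 (0.980) and Lin28b by Taf3 (0.985).

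Among the 7 genes themselves, over the same 7 libraries, Igf2bp1 and Lin28a had the highest correlation (r = 0.904), followed by Igf2bp3 and Lin28a (0.840) and Igf2bp1 and Igf2bp3 (0.807). Hmga2 correlated negatively with every other gene of the 7 except Lin28b (0.686). Among the other paralog pairs, r was −0.49 for Hmga1 and Hmga2, 0.08 for Lin28a and Lin28b, 0.08 for Igf2bp1 and Igf2bp2, and −0.24 for Igf2bp2 and Igf2bp3.

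The start sites of the genes differ in CpG content, the feature of the promoters that variant Polycomb complexes are known to occupy. RefSeq windows (GRCm38.p6) from 250 bases before to 50 after the start were matched for 6 of the 7 genes, and the dinucleotide CG was counted in them. Igf2bp2 had 47 CG, more than 98.6% of 32851 such windows. Hmga1 had 40 and 38 in 2 windows, Igf2bp3 25, Hmga2 12, Lin28a 10 and Lin28b 8, beside a median of 7 over all windows. The 3 genes with calls had 12, 25 and 47, and no binding or histone data were analysed here.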

How the data were processed

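The authors deposited 1 table per library of raw read counts, whole numbers, by Ensembl gene, per the file headers. The submitters' processing notes name mm10, HTSeq 0.6.0, TopHat2 2.0.12 and Cufflinks 2.2.1. The sources used here state neither their roles nor the annotation and strand setting. Libraries were made from poly-A RNA with the NEBNext Ultra RNA kit, per the labels' protocols. 0 entries named no gene, and 46488 of 47069 identifiers matched a symbol (GENCODE M21).

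Differences were tested on the counts with the quasi-likelihood F test of edgeR 4.0.16 (R 4.3.3; group as the only term, TMM, filterByExpr) in 1 fit of the 7 full libraries, which has 3 residual degrees of freedom. The filter left 15669 genes with at least 99.911% of each library's counts. Calls need an adjusted p (Benjamini-Hochberg, over every tested gene) no higher than 0.05. Errors of log2 fold changes, after ±, are standard errors. All adjusted p values are edgeR's unless another tool is named. A second fit took the 2702 genes that passed the filter among those listed in all 8 libraries, with 4 residual degrees of freedom. Alternatives were RLE size factors, DESeq2 1.42.0, limma-voom (limma 3.58.1), no filter, a replicate block and leaving out each library. The scripts were tested on simulated counts.

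The genes, the lists and the tests were chosen with earlier results of these data known. Named genes are the 7 members, for each the 3 genes with the highest r of log2(CPM + 1) (mean log2 CPM of at least 2, no predicted genes), up to 4 per list with the smallest p against WT, and Igf2, H19, Pcgf3 and Pcgf5. Overlapping genes and marker genes are named beside the results they touch.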

Additional observations from a re-analysis of the deposited data

Results flagged for a closer look

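For 3 of the 7 genes the double knockout change differed from the sum of the single-knockout changes by edgeR's test of the interaction. The log2 difference was 3.12 for Hmga2, whose level in DKO (13.7 and 8.599 CPM) was above that of every single-knockout library. It was −1.71 for Igf2bp3, which was lower in DKO than in all other libraries. It was −0.52 for Igf2bp2, which was above WT in all 6 edited libraries, at 251.1 and 247.9 CPM in Pcgf3KO and 235.7 and 219.3 in DKO. All 3 rest on 1 WT library.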

How the results depend on the processing

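Of 567 values of single genes under the alternatives, 491 kept their direction and side of the threshold or were uncalled in both, 42 became called, 34 lost their call and 0 called values changed sign. The number of the 7 genes called in Pcgf5KO against WT was 2 with DESeq2 and 2 without the filter on low counts (1 as reported). In DKO against Pcgf5KO it was 1 with limma-voom (2 as reported), where Hmga2 was lost (adjusted p = 0.0574), and 3 with DESeq2 and without the filter, where Hmga1 was added (adjusted p = 0.0218 and 4.62e-05). Without the filter it was 3 in DKO against WT (2 as reported), again with Hmga1 added (adjusted p = 0.0483). Leaving out 1 library at a time, the number ranged from 0 to 3 in Pcgf3KO against WT, 0 to 4 in Pcgf5KO against WT, 1 to 4 in DKO against WT, 0 to 4 in DKO against Pcgf3KO, 0 to 7 in DKO against Pcgf5KO, 0 to 4 in Pcgf5KO against Pcgf3KO and 1 to 6 for the departure from the sum. The high ends come from leaving out a DKO library, when 3143 to 4119 genes were called in the single knockouts against WT (370 and 468 as reported), and the low ends from leaving out a single-knockout library (37 to 131 genes). A library left alone in its group was assumed to vary like the others. WT replicate 2 could be left out only of comparisons without WT, which called 2, 2 and 0. Over all genes, edgeR without the filter called 1105, 1222, 1474, 1355, 2312, 224 and 1904 in the order above (370, 468, 505, 272, 357, 22 and 594 as reported). DESeq2 called 804 in DKO against Pcgf5KO and 79 in Pcgf5KO against Pcgf3KO, and limma-voom 216 in DKO against Pcgf5KO. With a replicate block the counts were 2, 1, 2, 2, 3, 0 and 3 in the order above, with Hmga1 added in DKO against Pcgf5KO (adjusted p = 0.0176), and over all genes the last 4 comparisons called 499, 1532, 62 and 1305. The replicate numbers are not stated to pair the libraries, and same-numbered libraries deviated from their group means with correlations of 0.14, 0.01 and −0.01. Hmga2, with 56 to 88 reads in the single-knockout libraries, is the gene of the 7 most limited by depth.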
